A study of Gallus gallus with 4 samples.

Results

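The nucleated red blood cells described here were 79 of the 12042 blood cells in libraries 1 to 3 of a single-cell RNA sequencing series of chicken peripheral blood mononuclear cells. They were selected on 1 measured value, a value of 10 or more for HBBA, the beta chain of adult haemoglobin. HBBA is therefore described below and not tested. Libraries 1, 2 and 3 gave 31, 23 and 25 such cells. They are set against the 11963 remaining cells of the same libraries and, as a narrower reference, against 402 thrombocytes, the nucleated counterpart of platelets.

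Each library came from the heparinised blood of 1 clinically healthy, untreated hen, 24 weeks of age, and there was no treatment, genotype or disease group. The sample labels name the strain as Bovans Robust, whereas the study's methods name Dekalb White hens. Mononuclear cells were prepared on a Ficoll gradient, which removes most red cells, and thrombocytes were depleted with antibodies to CD41/61 on magnetic beads. Cells in which globin transcripts made up more than 5% of the total were then removed by the study's filter. The red cells that remain are thus a residue left by 2 selections against them, and neither their number nor their upper globin level describes blood.

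Unlike those of mammals, the circulating red cells of birds keep their nucleus. As they mature, haemoglobin fills the cytoplasm, the chromatin is condensed by a linker histone typical of nucleated red cells, histone H5, and most organelles and most transcription are lost. Adult chicken haemoglobin is assembled from 2 kinds of alpha chain, encoded by HBA1 and HBAD, and from the beta chain encoded by HBBA.

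All 3 globin genes that could be measured were carried by these cells, and the other lists of red cell genes moved with them in part. Against the remaining cells, 9 of 10 tested genes of iron handling, 11 of 13 erythroid regulators and 7 of 10 antioxidant enzymes rose. So did the gene of histone H5, while 11 of 11 tested T cell genes fell. Over all 4628 tested genes, 20.6% were higher in red cells and 25.7% lower. Several of the list counts were smaller in other settings, given with each list below. Fewer genes were also found per cell. In the matrix used here, values per cell total only 1577 to 3004 and were read as UMI counts corrected to a common depth, in whole numbers. A level below is the sum of a gene's values in a group of cells of 1 library, scaled to 10000. Fold changes are log2 of the level plus 0.5, red cells over the reference, with the standard error from limma, and n is 3 libraries per group. A gene was tested where its mean level reached 0.5 in either group, and was called at an adjusted p under 0.05. Genes under 0.5 in the remaining cells, such as ISCU, GLRX5, TFRC, SLC25A37, ABCB10, TAL1, SLC4A1, KEL, SOD1 and CA2, were tested only through the red cells and could hardly fall. The same held for HMOX2, IREB2, GFI1B, ADD2, SPTB and CAT. Likewise CD3E, GAPDH, HK1 and TPI1, under 0.5 in red cells, were tested only through the remaining cells and could hardly rise. The counts of rising and falling genes per list are thus partly set by this filter.

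3 properties of the data bear on every value. First, libraries 3 and 4 shared 4890 cell barcodes, while every other pair shared between 1 and 9. Library 4 was left out as a near copy of library 3, and 23 of the 25 red cells of library 3 carried a barcode that was also a red cell in library 4. No barcode was shared among the red cells of libraries 1, 2 and 3.

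Second, the 79 cells were of 2 kinds. In 65 of them (24, 22 and 19 in libraries 1, 2 and 3) fewer than 800 genes were found, with a range of 452 to 692 genes and a median of 550. The other 14 cells (7, 1 and 6) had 889 to 1763 genes and a median total of 2694, against 1656 in the 65. Many of these 14 carried the marker genes of another blood cell type together with globin. The summed value of the T cell list was 14 to 40 in 4 of them, that of the B cell list 22 to 26 in 4, and that of the monocyte list 6 to 11 in 4. Of those last 4, 1 also had 23 on the heterophil list and 9 on the cytolytic list, 1 had 25 on the cytolytic and 8 on the heterophil list, and 1 had 10 and 9 on these lists, so that in 3 of them another list stood at least as high as the monocyte list. A further cell had 36 on the eosinophil list, and the last had at most 9 on any list of another cell type. The cytolytic list is GNLY, FASLG, GZMA, GZMM and ZEB2. ZEB2 is not among the cytolytic markers of the study, and its highest value in the 14 cells was 25. The median of HBBA was 21 in the 14 and 30 in the 65, that of HBA1 22 and 19, that of FTH1 9 and 33, and that of H1F0 2 and 8. The study had removed called doublets before deposit, and whether these 14 barcodes held 2 cells, or 1 cell with free RNA, was not tested.

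Lastly, some genes stood at a value of exactly 1 in nearly every one of the 65 smaller cells. PTPRC, the leukocyte common antigen CD45, was 1 in 63 of them, 0 in 2 and never higher, whereas in the remaining cells it was 2 or more in 10162 of 11963. Genes with a value of 1 in at least 80% of the smaller red cells numbered 49, 13 and 41 in libraries 1, 2 and 3. Each of them averaged at least 2.38 per remaining cell in its library, against a median over all genes of 0.0249 to 0.0299. Depth correction of the kind the study describes can place an abundant gene above 0 in a shallow cell in which no molecule of it was counted. The raw counts were not used here, so the part of this in a value of 1 was not tested, and a leukocyte gene at 1 is not read below as expression.

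**Figure D1:**
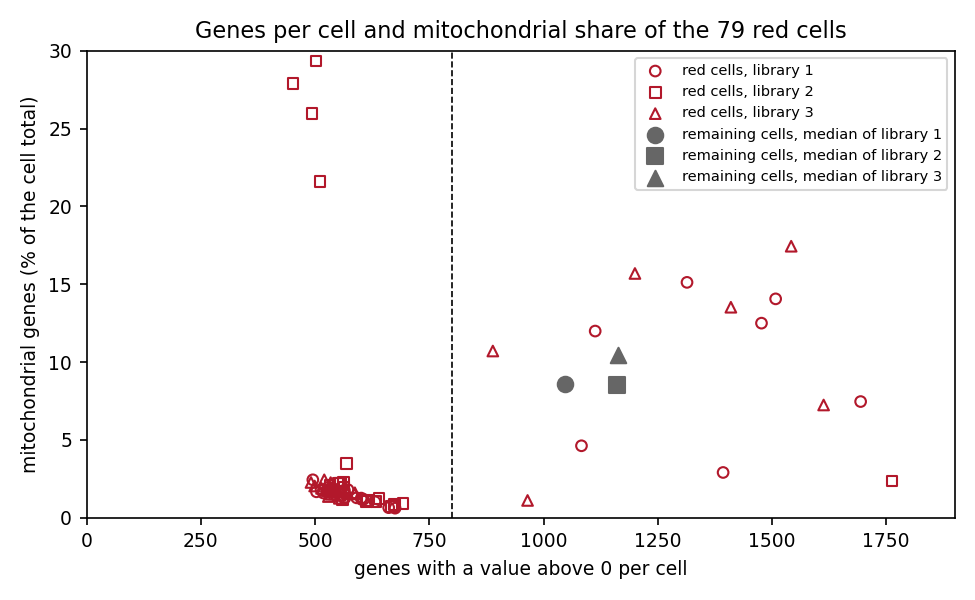
Genes found per cell (horizontal axis) and percent of the value total from mitochondrial genes (vertical axis) for the 79 red cells (open red symbols, 1 shape per library), with the median of the remaining cells of each library (filled grey) and a dashed line at 800 genes. The 65 smaller cells lie at 452 to 692 genes, and the 14 cells right of the line at 889 to 1763, around the medians of the remaining cells.

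HBBA, on chromosome 1 (196004356 to 196005887, GRCg7b), had levels of 154, 183 and 152 in the red cells of libraries 1, 2 and 3, against 0.705, 0.874 and 1.04 in the remaining cells. The gap is fixed by the choice of cells. Among the members HBBA ran between 10 and 68, with a median of 30. Just inside the limit, 7 cells with HBBA of 10 to 12 had HBA1 values of 8 to 49, and just outside it, 5 cells with HBBA of 8 or 9 had HBA1 values of 2 to 10.

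HBA1, the gene of the major adult alpha chain (chromosome 14, 12118602 to 12119420), was not used to select the cells, although it entered the study's globin limit. It had levels of 125, 123 and 112 in red cells, against 0.751, 0.775 and 0.924 in the remaining cells. Every red library lay above every reference library, with a log2 fold change of 6.51 ± 0.15 (SE, n = 3 libraries each) and a limma adjusted p of 2.27e-06. All 79 members carried HBA1, at values of 2 to 89 with a median of 20.

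HBAD, the gene of the minor alpha chain, lies beside it (chromosome 14, 12115577 to 12116504). Its levels were 15.4, 14.8 and 9.73 in red cells, against 0.274, 0.286 and 0.374 in the remaining cells, a log2 fold change of 4.07 ± 0.24 with a limma adjusted p of 8.94e-05. HBAD was at 0 in 32 of the 79 members. For each unit of HBA1, red cells held 0.124, 0.121 and 0.0870 units of HBAD in libraries 1, 2 and 3, and for each unit of HBBA 0.808, 0.672 and 0.736 units of HBA1.

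Among the selected cells HBBA and HBA1 did not rise together from cell to cell. Over the 79 members the correlation of HBBA with HBA1 was -0.115 (Pearson) and -0.105 (Spearman), and that of HBA1 with HBAD was 0.238 and 0.177. These are descriptions over cells that share 3 libraries and the study's ceiling on total globin, which limits cells high in both genes. The choice of cells by HBBA also cuts its range from below, so these correlations do not describe cells across that limit. The highest globin share in a member was 4.58%, 4.49% and 4.77% of its total in libraries 1, 2 and 3. The mean of HBA1 was 0.176 in the 9920 cells without HBBA, 6.67 in the 15 cells with HBBA of 5 to 9, 23.0 in the 21 cells with 10 to 19, 24.6 in the 39 cells with 20 to 39 and 17.0 in the 19 cells with 40 or more. The mean of H1F0 in the same 5 classes was 0.168, 2.93, 7.0, 9.82 and 10.1.

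Globin also reached cells outside the class. HBBA was at 1 or more in 14%, 17.2% and 19.8% of the remaining cells of libraries 1, 2 and 3, and in 16.0%, 27.4% and 17.6% of the thrombocytes, which should lack it. Median totals were 2324, 2450 and 2447 in the remaining cells and 2009, 1980 and 1881 in thrombocytes. A value of 1 outside the class is therefore not read as expression. Higher values also occurred, and the 15 cells with HBBA of 5 to 9 had means of 6.67 for HBA1, 2.93 for H1F0 and 1.33 for SOX6. In the cells without HBBA these means were 0.176, 0.168 and 0.0723. The mean sum of the genes shared by leukocytes was 21.5 in those 15 cells and 19.8 in the cells without HBBA. Whether their globin came from free RNA, from joined cells or from red cells under the limit was not tested. The 79 red cells held 55.6%, 57.0% and 36.5% of all HBBA in their libraries.

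**Figure D2:**
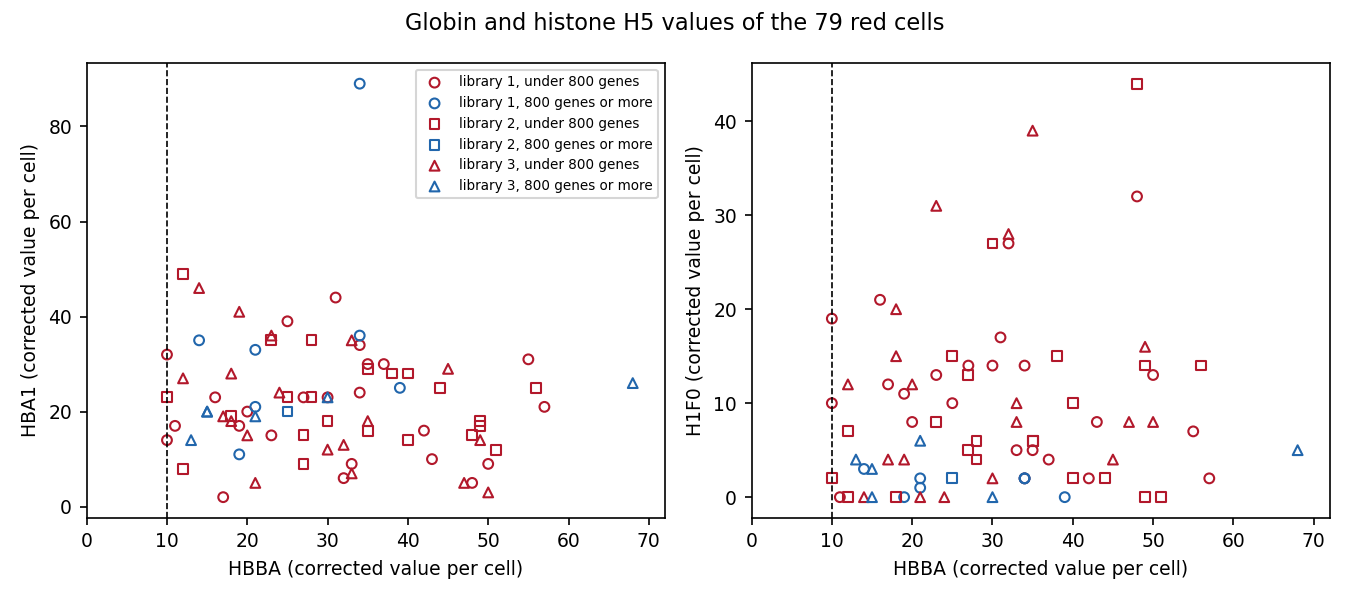
Value of HBBA per red cell (horizontal axis) against that of HBA1 and of H1F0 (vertical axes) for the 79 members, with 1 shape per library, the 65 cells under 800 genes in red and the 14 with more in blue. The dashed line is the HBBA limit of 10, HBA1 is 2 or more in every member, and H1F0 is 0 in 12 of them.

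As a share of the cells left after the study's filters, red cells made up 0.696%, 0.853% and 0.511% in libraries 1, 2 and 3. By flow cytometry of the depleted preparations, before those filters, the study found a higher average share of red blood cells. For the shares after the filters, the 95% intervals by the method of Clopper and Pearson were 0.474% to 0.987%, 0.541% to 1.28% and 0.331% to 0.753%. The mean of these shares was 0.687 ± 0.171% (SD, n = 3). The intervals cover counting error only, and those of any 2 libraries overlap.

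Red cells held fewer genes. With each cell thinned to a total of 1500, the median number of genes was 558, 551 and 525 in red cells of libraries 1, 2 and 3, against 780, 823 and 821 in the remaining cells. Thrombocytes, with 558, 589 and 546, lay close to the red cells. Thinning acted on values already corrected for depth, so it does not equalise the depth of the cells before correction. The part of that depth in these gene numbers was not tested. Mitochondrial genes made up a median of 1.77%, 1.95% and 1.76% of the total in red cells, against 8.62%, 8.54% and 10.5% in the remaining cells and 3.40% to 4.59% in thrombocytes. Ribosomal protein genes ran the other way, at 4.03%, 4.11% and 4.89% in red cells, against 2.79%, 2.87% and 2.57% in the remaining cells. For each of these 3 measures the red and remaining cells did not overlap between libraries, with an exact two-sided permutation p of 0.1, the smallest that 3 against 3 allows. Among the 65 smaller cells, 61 had a mitochondrial share of 0.621% to 3.49%, and 4 cells, all of library 2, had 21.6% to 29.4%.

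Against the remaining cells, 4628 genes were tested, of which 954 were higher in red cells (20.6%) and 1189 lower (25.7%), 46.3% in all, with a median log2 fold change of -0.06. Each group of genes below is read against these shares. 2 further settings changed named results and are given beside them. In the first, the reference was only the shallower remaining cells, those with a total of 2000 or less, a choice made after the data were seen. These were 217, 158 and 402 cells in libraries 1, 2 and 3, of which 34, 59 and 148 were thrombocytes. All remaining cells held 75, 106 and 221 thrombocytes among 4421, 2674 and 4868. This reference thus differs in cell types as well as in totals, and the part of each in its results was not tested. In the second, red cells were left out where the T cell, B cell, monocyte, cytolytic and thrombocyte lists, added together, reached 3 or more. This kept 2, 11 and 3 red cells, and those left out are called marker-bearing below. The name refers to the sum alone. In the 65 smaller cells BCL11B was at 1 in 48 and TCF7 in 33, and such values are not read as expression. The cells kept had value totals of only 3543, 18843 and 5037, so a low gene is easily at 0 in them. In this setting 1800 of 4451 tested genes were lower and 214 higher. Of 134 named calls against the remaining cells, 105 were kept in the second setting, 5 turned direction and 24 were lost, among them SLC25A37, ABCB10, TMEM14C, ISCU, LMO2, MAFG, SLC4A1, KEL, SOD1, SOD2, TXN, DNAJB1, BNIP3L, GABARAPL2, UBB, CA13 and BG8.

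The chromatin of red cells was marked by H1F0 (chromosome 1, 51169503 to 51170388), which RefSeq lists with the synonym H5. Its levels were 46.9, 49.2 and 51.7 in red cells, against 0.337, 0.84 and 1.06 in the remaining cells, a log2 fold change of 5.37 ± 0.25 (limma adjusted p = 3.61e-05), and of 2.89 against the shallower remaining cells. The red libraries lay close together, and 66 of the 79 members had 2 or more. H3F3C, a replacement histone H3 gene chosen after its values were seen, had levels of 38.6, 40.4 and 48.0 in red cells against 6.23, 5.72 and 5.77. HMGN1, a nucleosome-binding protein, had 15.9, 19.5 and 22.9 against 0.758, 0.624 and 0.677, with a log2 fold change of 4.06.

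Genes of iron handling were mostly higher in red cells. Of 10 tested genes 9 rose, none fell and 1 was not called, with a median log2 fold change of 1.36 against -0.06 over all tested genes. At least ISCU, GLRX5, TFRC, HMOX2 and IREB2 were tested only through their level in red cells, so this count is partly set by the filter. FTH1 (chromosome 5, 16382492 to 16387054), the ferritin heavy chain that stores iron, had the highest level of them. It stood at 178, 215 and 157 in red cells, against 7.30, 21.5 and 17.1 in the remaining cells, a log2 fold change of 3.66 ± 0.37 with a limma adjusted p of 0.000785. FTH1 overlaps BEST1 on the map, and the strand of counting was not used to separate them. GLRX5, a mitochondrial glutaredoxin needed for iron-sulphur clusters, had 3.19, 6.09 and 3.89 in red cells against 0.243, 0.343 and 0.321, a log2 fold change of 2.56 (adjusted p = 0.000893).

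ISCU, the scaffold on which iron-sulphur clusters are built, rose by 2.49, with levels of 1.17, 2.43 and 6.27 in red cells against 0.0556, 0.0957 and 0.0714, and its call was lost without library 2 (adjusted p = 0.0727). HMOX2, a haem oxygenase, rose by 1.63. TFRC, the transferrin receptor through which immature red cells take up iron, had 0.838, 0.974 and 1.95 in red cells against 0.386, 0.434 and 0.480. Its log2 fold change of 0.86 passed narrowly (adjusted p = 0.0486) and was not called with the hen as a block (0.0874) or without any 1 library. Without libraries 1, 2 and 3 in turn, 4, 7 and 5 genes of the list rose. Without the marker-bearing red cells FTH1, GLRX5 and NCOA4 stayed called higher, and the calls of ISCU, PCBP2 and SLC11A2 were lost. HMOX1 was then called lower, with a log2 fold change of -1.34 (adjusted p = 0.00395), as were 1800 of all 4451 tested genes in that setting.

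Haem synthesis was thinly measured. Only 5 of its 15 genes were abundant enough to test, of which 3 rose and none fell, and the 10 untested genes include ALAS1 and the last enzyme of the path, FECH. SLC25A37, mitoferrin, which carries iron into mitochondria, had 4.86, 2.68 and 1.95 in red cells against 0.0287, 0.0463 and 0.0349, a log2 fold change of 2.69 (adjusted p = 0.00135). ABCB10, a transporter of the inner mitochondrial membrane, had 1.51, 1.46 and 1.51 against 0.0881, 0.103 and 0.0944. TMEM14C, which serves the import of a haem precursor, rose by 1.53 (adjusted p = 0.0268), and this call was lost without library 1 (0.203), without library 3 (0.146) or against the shallower remaining cells, where the log2 fold change was 0.35 (0.604).

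Of 13 tested erythroid regulators 11 rose, 1 fell and 1 was not called, with a median log2 fold change of 1.78. Without libraries 1, 2 and 3 in turn, 9, 8 and 10 genes of the list rose, ZFPM1 among them without library 3. The list gave 9 against the shallower remaining cells and 4 without the marker-bearing red cells. The gene that fell, BCL11A, a repressor of foetal globin in mammals, was not called without library 3 (adjusted p = 0.0548) or against the shallower remaining cells (0.357). SOX6, which was not on this list but among the largest rises, is a transcription factor that acts in terminal red cell maturation in mammals (chromosome 5, 10772986 to 11177732). It stood at 29.3, 20.9 and 18.6 in red cells, against 0.298, 0.327 and 0.335, a log2 fold change of 4.81 ± 0.22 (limma adjusted p = 3.59e-05). TAL1, a basic helix-loop-helix factor of blood stem cells and the erythroid line (chromosome 8, 21597188 to 21605603), had 19.9, 12.7 and 19.9 against 0.234, 0.361 and 0.460, with a log2 fold change of 4.38 ± 0.25, and of 2.24 against the shallower remaining cells. SOX6 was at 0 in 30 and TAL1 in 20 of the 79 members.

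LMO2, the bridging partner of TAL1, rose by a log2 fold change of 2.25, with 3.02, 8.28 and 3.03 in red cells against 0.448, 0.545 and 0.526. JAK2, the kinase that carries the erythropoietin signal, rose by 2.23, with 19.4, 19.7 and 9.30 against 2.78, 2.84 and 3.02. The small Maf proteins MAFK and MAFG, partners of the erythroid factor NFE2, rose by 2.06 and 1.98, FOXO3 by 1.79, KLF3 by 1.56 and GFI1B by 1.47. Against the shallower remaining cells JAK2 rose by 1.16 and FOXO3 by 0.90, and GFI1B was not called (log2 fold change of 0.90, adjusted p = 0.0815). Without the marker-bearing red cells KLF3 had a log2 fold change of -0.044. ZFPM1, which binds GATA factors, had a log2 fold change of 1.02 and an adjusted p of 0.061, and was called with the hen as a block (0.041) and without library 3 (0.0301). GATA1, KLF1, NFE2 and EPOR were not analysed here.

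The genes of the red cell membrane and its skeleton gave a mixed picture, with 5 of 14 tested genes higher, 3 lower and 6 not called. SLC4A1, the band 3 anion exchanger that exports bicarbonate (chromosome 27, 2649798 to 2668681), stood at 3.52, 0.487 and 3.68 in red cells, against 0.0115, 0.00772 and 0.0196. It was seen at 2 or more in 11 of the 65 smaller cells, and its log2 fold change of 2.31 (adjusted p = 0.0144) was not called without library 1 (0.131) or library 3 (0.118). KEL, the Kell blood group protein, rose by 1.88, with 2.01, 0.974 and 1.51 in red cells against 0.0211, 0.0432 and 0.0298. The adducin ADD2 and the beta spectrin SPTB rose by 1.11 and 1.04. The ankyrin ANK1 had 0, 2.92 and 0.649 in red cells against 0, 0.00926 and 0.00255, and was called with the hen as a block (adjusted p = 0.0219) and not without it (0.119). Over the whole list, the summed level in the 65 smaller cells was 19.9, 20.7 and 20.7, against 21.7, 22.8 and 20.7 in the remaining cells.

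**Figure D3:**
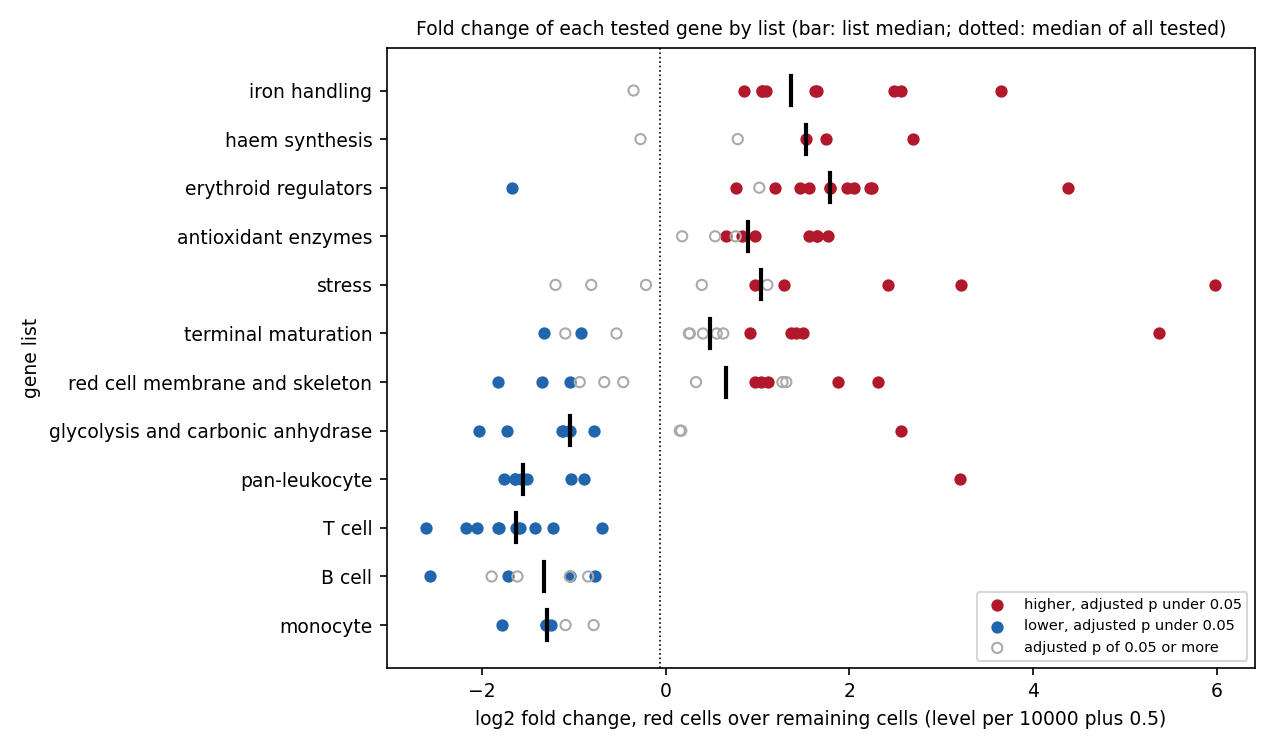
Log2 fold change of red cells over the remaining cells for each tested gene of the lists, with a bar at the median of each list and a dotted line at the median of all 4628 tested genes, -0.06. The medians of the lists drawn run between 1.78 for the erythroid regulators and -1.63 for the T cell genes, and the lists of membrane and terminal maturation genes hold genes on both sides.

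Enzymes that protect against oxidation rose in 7 of 10 tested cases and fell in none, with a median log2 fold change of 0.90. Without libraries 1, 2 and 3 in turn, 3, 5 and 4 rose. Without the marker-bearing red cells PRDX1 and GCLC stayed called higher, and the calls of SOD1, SOD2 and TXN were lost. In that setting GPX1 had a log2 fold change of -0.42 that was not called, and PRDX6 was called lower (-1.17, adjusted p = 0.000302). So were 1800 of all 4451 genes tested there. SOD1, the copper-zinc superoxide dismutase, had 2.01, 1.95 and 2.38 in red cells against 0.324, 0.360 and 0.307, a log2 fold change of 1.65 (adjusted p = 0.0017). GCLC, the first enzyme of glutathione synthesis, had 6.04, 5.36 and 6.27 against 1.56, 1.74 and 1.70. PRDX1, a peroxiredoxin, and TXN, thioredoxin, rose by 1.64 and 1.77, but PRDX1 was not called without library 3 (adjusted p = 0.0577) or TXN without library 1 (0.161) or 3 (0.0845). Catalase, CAT, rose by 0.65 and SOD2 by 0.97, and neither was called with the hen as a block (adjusted p = 0.172 and 0.0575) or against the shallower remaining cells (0.322 and 0.197).

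Of the 10 tested heat-shock and early stress genes 5 rose and none fell. HSPA2 (chromosome 5, 52384623 to 52386942), which RefSeq lists with the synonym HSP70, was the highest of them, with 60.2, 40.4 and 62.3 in red cells, against 0.384, 0.283 and 0.390, a log2 fold change of 5.98 ± 0.22 (limma adjusted p = 3.55e-05). HSPA2 overlaps PPP1R36. The chaperone HSP90AA1 had 27.2, 23.4 and 33.3 against 2.70, 2.84 and 2.13, and the co-chaperone DNAJB1 and HSPH1 rose by 2.42 and 1.29. DNAJB1 was not called without library 2 (adjusted p = 0.0542) or library 3 (0.0533). Of FOS and JUN, which rise quickly in handled cells, JUN had a log2 fold change of -0.21 (adjusted p = 0.671). FOS had one of -1.20 that was not called (adjusted p = 0.0735) but was called lower with the hen as a block (0.0151) and without the 14 larger red cells (0.0359). All of the cells passed through the same preparation, and the part of handling in these levels was not tested.

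Genes of terminal maturation, which clear organelles and protein, rose in 5 and fell in 2 of 14 tested cases, H1F0 among those that rose. GABARAPL2 and BNIP3L, which serve autophagy and the removal of mitochondria, rose by log2 fold changes of 1.5 and 1.37. BNIP3L had 2.18, 1.95 and 3.24 in red cells against 0.678, 0.604 and 0.602. LOC101747587, which RefSeq lists with the synonyms UBB and UbI and which was chosen after its values were seen, had 81.8, 98.3 and 117 in red cells, against 9.37, 9.78 and 9.61. UBB itself rose by 1.42, a call lost without library 1 (adjusted p = 0.0943), without library 3 (0.0608) or against the shallower remaining cells (0.108). These 2 ubiquitin genes may share reads, so their separate levels are uncertain. HDAC2 and RIOK3, which serve nuclear condensation and maturation in mammalian erythroblasts, fell by 1.32 and 0.92 on the log2 scale. HDAC2 was not called without library 3 (adjusted p = 0.0932), nor RIOK3 without library 2 (0.0742) or library 3 (0.0920), and against the shallower remaining cells neither was called (0.202 and 0.0503).

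Glycolysis lay on the other side. Of 10 tested genes of glycolysis and carbonic anhydrase 7 fell, 1 rose and 2 were not called, and without libraries 1, 2 and 3 in turn 7, 2 and 3 fell. GAPDH stood at 1.01, 0.243 and 0 in red cells, against 2.08, 3.82 and 2.93, and was at 0 in all 65 smaller cells. Its log2 fold change of -2.03 (adjusted p = 0.00955) was not called without library 2 (0.103) or library 3 (0.0738). ENO1 had a log2 fold change of -1.73, and HK1 and TPI1 were listed at 0 in every red library. The gene that rose was CA2, a carbonic anhydrase that hydrates carbon dioxide, with 4.86, 1.22 and 4.54 in red cells against 0.0900, 0.123 and 0.117. CA2 had an adjusted p of 0.00462 and was not called without library 1 (0.0662) or library 3 (0.0604). CA13, chosen after its values were seen, had 7.71, 1.95 and 4.97 in red cells. Library 2 was the lowest in both.

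The 15 largest rises that held in every library included, besides HBA1, HSPA2, H1F0, SOX6 and TAL1, several genes outside the lists. IFI27L2 (chromosome 23, 4701712 to 4705881), an interferon-inducible gene, stood at 23.8, 45.0 and 34.8 in red cells, against 0.184, 0.178 and 0.188, a log2 fold change of 5.63. It overlaps LOC121107456 and 3 microRNA genes. CREG1, a secreted glycoprotein of lysosomes (chromosome 1, 91771934 to 91776923), had 50.6, 43.1 and 43.7 against 0.813, 1.51 and 1.45. OTUD1, a deubiquitinase, had 16.1, 22.9 and 22.7 against 0.245, 0.204 and 0.207. ITM2B, WBP4 and SLC7A7 rose by 4.28, 4.28 and 4.25. MOG rose by 5.06, but it overlaps LOC101751084 and its value is uncertain. Among the other genes named here, B2M overlaps TERB2, SLC4A1 UBTF, SPTB PLEKHG3, GFI1B TSC1, MAFK GAA2, BNIP3L DPYSL2, RIOK3 TMEM241, CA13 C8orf59, CD3E MPZL2 and BLB1 BLEC1, and TAL1, SOX6 and JAK2 each overlap a gene known only by a LOC number.

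B2M and 3 genes of the major histocompatibility complex, BF1, BF2 and BG8, were higher in red cells than in the remaining cells, while 2 class II genes were lower. Avian red cells, with a nucleus, are known to carry class I molecules and the BG antigens on their surface. B2M, the light chain of class I (chromosome 10, 1355773 to 1358713), had 11.7, 13.4 and 21.0 in red cells, against 1.02, 1.22 and 1.30, a log2 fold change of 3.20 (adjusted p = 0.000274). The class I heavy chain BF1 (chromosome 16, 2213458 to 2216245), chosen after its values were seen like the other genes of this complex here, had 31.0, 34.1 and 34.2 against 4.63, 5.66 and 5.32. BF2 had 31.0, 35.3 and 32.9 against 7.06, 10.5 and 8.48. BF1 and BF2 are close copies, and reads may have been split between them. Against the shallower remaining cells the log2 fold changes of B2M, BF1 and BF2 were 2.06, 1.16 and 0.86, against 3.20, 2.56 and 1.89 with all remaining cells.

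BG8, a BG gene (chromosome 16, 2011680 to 2018275), had 7.38, 3.16 and 5.84 in red cells, against 0.09, 0.07 and 0.10, with a log2 fold change of 3.28. The class II beta chains went the other way. BLB2 had 3.02, 2.19 and 2.81 in red cells against 4.56, 15.4 and 7.21, a log2 fold change of -1.43, and BLB1 one of -2.11. BLB2 was not called without library 2 (adjusted p = 0.0810) or library 3 (0.132), nor BLB1 without library 1 (0.103) or library 2 (0.0747). Against the shallower remaining cells, neither was called, with log2 fold changes of -0.01 for BLB2 and -0.73 for BLB1.

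**Figure D4:**
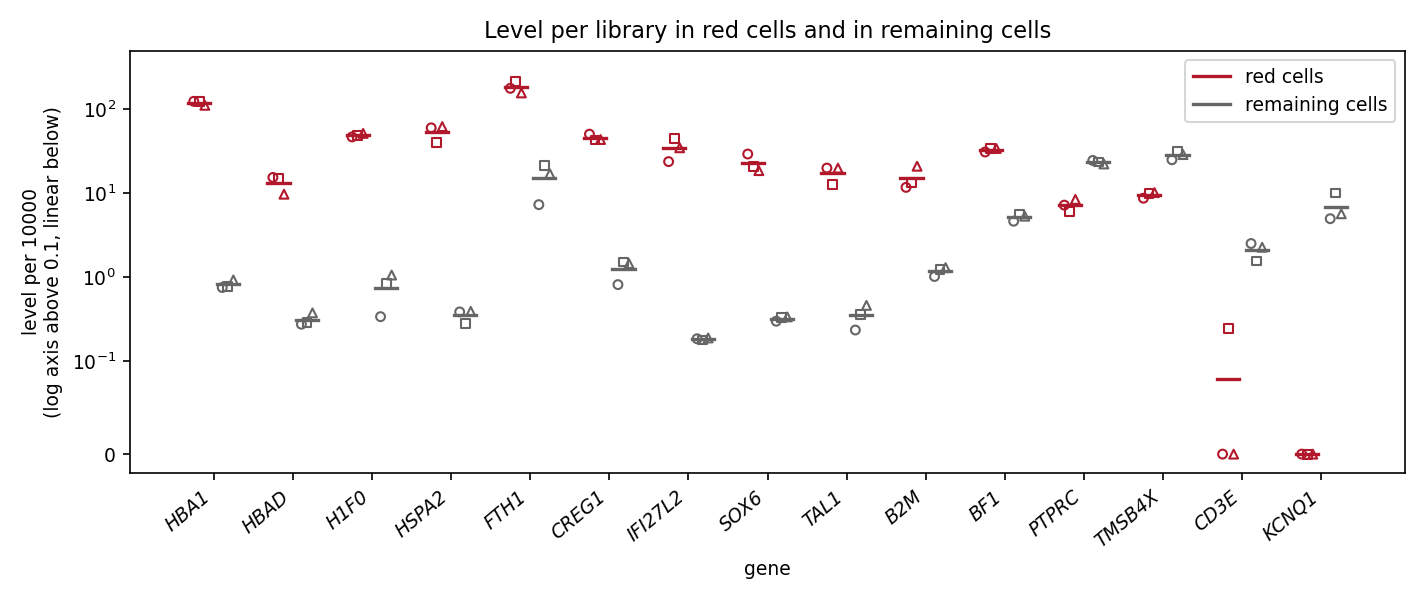
Level (sum of values scaled to 10000, symmetric log axis) of 15 genes in the red cells and, to their right, in the remaining cells, with 1 shape for each of libraries 1 to 3 and a bar at their mean. From HBA1 to BF1 the red cells lie above the remaining cells in every library, and PTPRC, TMSB4X, CD3E and KCNQ1 lie below them.

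Ribosomal protein genes, which made up a larger share of the total per cell, did not move as a block. Of 70 tested genes 14 rose, 10 fell and 46 were not called, with a median of -0.13. RPL23A was the one with the highest level, at 48.5, 42.6 and 47.8 in red cells, against 5.10, 4.50 and 5.0, a log2 fold change of 3.12. Of 17 tested mitochondrial genes 15 fell and none rose.

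Leukocyte transcripts were lower in red cells without being absent. All 11 tested T cell genes fell, 4 of 8 tested B cell genes, 5 of 7 monocyte genes and 8 of 9 genes shared by leukocytes, while the remaining gene of that list, B2M, rose. Without libraries 1, 2 and 3 in turn, 7, 6 and 8 T cell genes, 1, 0 and 4 B cell genes and 5, 0 and 0 monocyte genes fell. Against the shallower remaining cells, 4 T cell, 1 B cell and 1 monocyte gene fell. The T cell list in total stood at 30.6 ± 3.97% of its level in the remaining cells (SD, n = 3), in libraries 1, 2 and 3 at 31.8%, 26.2% and 33.8%. The B cell list stood at 15.9%, 5.07% and 77.8%, and the monocyte list at 108%, 2.99% and 11.7%. The last 2 thus varied between libraries far more than the T cell list.

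Most of this variation went with the 14 cells of 800 genes or more. In the 65 smaller cells the B cell list stood at 0%, 5.45% and 15.3% of its level in the remaining cells, and the monocyte list at 0%, 3.22% and 0%. None of the 65 had 3 or more on the monocyte, heterophil or thrombocyte lists, and 2 had 3 or more on the B cell list. With only the smaller cells in the fit, 7 of 8 B cell genes, 7 of 7 monocyte genes and 4 of 4 heterophil genes fell. Over all 4758 genes tested in that fit, 1423 were lower and 982 higher. At 0 in every smaller cell were 3 of the 8 B cell, 7 of the 8 monocyte and 3 of the 4 heterophil genes. Such genes were tested only through the remaining cells and could not rise, so the filter largely set these counts.

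The T cell list behaved differently. In the smaller cells it still stood at 28.6%, 15.7% and 36.1% of the remaining cells, and 38 of the 65 (58.5%) had a sum of 3 or more, with a highest sum of 11. Its genes were uneven. BCL11B was at 1 in 48 of the 65 cells and at 2 or more in 5, TCF7 at 1 in 33 and at 2 or more in 2, and CD247 at 1 in 23 and at 2 or more in 14. CD3E, the CD3 chain that defines T cells, was at 0 in all 65, and 6 of the 13 T cell genes were at 0 in every smaller cell. CD3E in all 79 cells stood at 0, 0.243 and 0, against 2.51, 1.55 and 2.27 in the remaining cells, a log2 fold change of -2.17 (adjusted p = 0.00166).

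The genes shared by leukocytes were uneven too. PTPRC had levels of 7.21, 6.09 and 8.44 in red cells, against 24.6, 23.5 and 22.3, a log2 fold change of -1.64 (adjusted p = 0.000785), and its level in the smaller cells came from values of 1 alone. TMSB4X, thymosin beta 4, had 8.72, 9.98 and 10.2 against 25.1, 31.4 and 28.9, and was at 1 in 54 of the 65. IKZF1, a lymphoid transcription factor, was at 1 in 48 and at 2 or more in 3. CD44, an adhesion receptor chosen after its values were seen, was at 1 in 32 and at 2 or more in 33 of the 65, with levels in all red cells of 27.0, 9.25 and 12.1 against 54.6, 42.2 and 39.7. Its call was lost without library 2 (adjusted p = 0.0948) or library 3 (0.106).

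The genes that mark the red cells were distributed otherwise. H1F0 was at 0 in 8, at 1 in none and at 2 or more in 57 of the 65 smaller cells, HSPA2 likewise at 0 in 8 and at 2 or more in 57, FTH1 at 0 in 2 and at 2 or more in 63, and B2M at 0 in 16 and at 2 or more in 49. None of these 4 had a smaller cell at 1. The division was not one of leukocyte against red cell genes, since CD3E, THEMIS, PAX5 and EBF1 likewise had no smaller cell at 1, and TNRC6B, BF2 and H3F3C, all higher in red cells, had 10, 6 and 2. Which of the leukocyte values came from free RNA, from joined cells, from the depth correction or from the red cells themselves was not tested. The cytolytic list reached 3 or more in 13 of the 65 cells, against 313 of the 402 thrombocytes. This is not read as cytolytic expression, since the list includes ZEB2, which was at 2 or more in 19 of the 65. Of the 5 genes on the list, 3 were at 0 in all 65 cells.

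**Figure D5:**
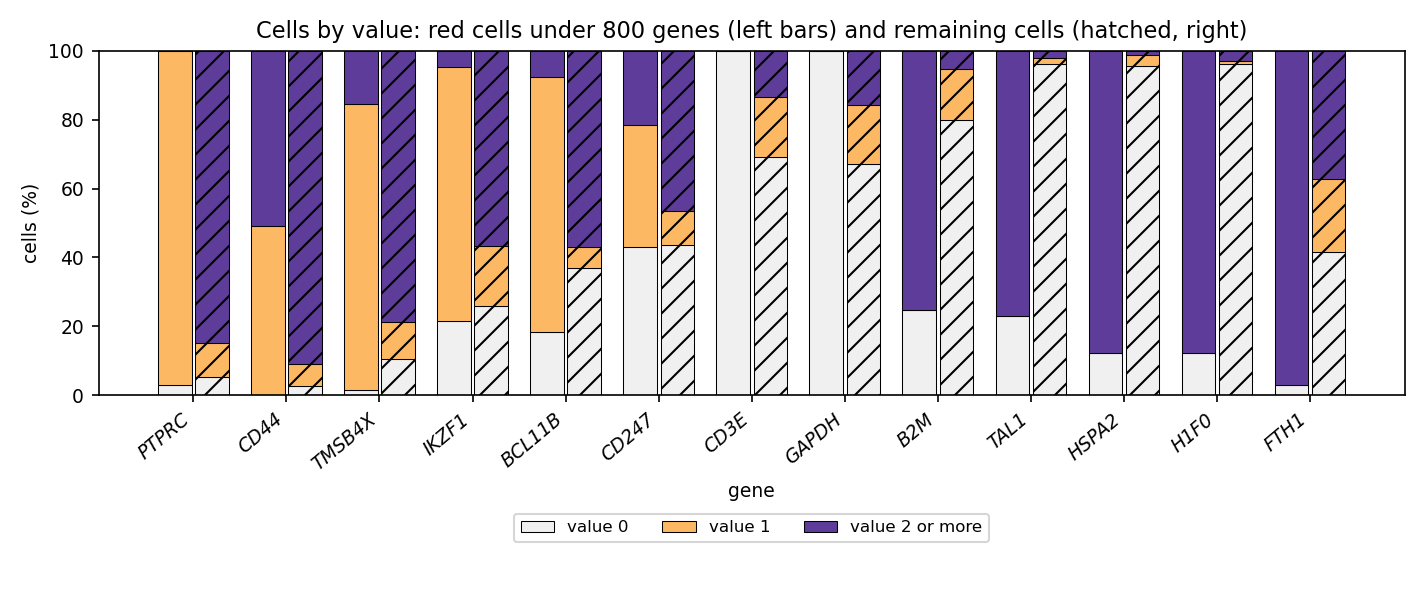
Percent of cells at a value of 0, of 1 and of 2 or more for red cell and leukocyte genes, in the 65 red cells under 800 genes (left bar of each pair) and in the 11963 remaining cells (right, hatched). PTPRC is at 1 in 63 of the 65 red cells and at 2 or more in most remaining cells, while H1F0, HSPA2 and FTH1 have no red cell at 1.

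Of the 15 largest falls, KCNQ1, a potassium channel gene (chromosome 5, 12837708 to 13159212), was listed at 0 in all 3 red libraries, against 4.97, 10.1 and 5.69 in the remaining cells. ZNF521 was likewise listed at 0 in red cells, against 6.93, 6.25 and 5.07. WWOX stood at 0.168, 0.487 and 0, against 9.93, 9.40 and 8.42. HDAC9, a histone deacetylase, BCL2, an inhibitor of cell death, and LDLRAD4 had log2 fold changes of -3.40, -3.05 and -2.98.

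Thrombocytes, like red cells, keep a nucleus in chicken blood and share an ancestor with them, so they serve as a narrower reference. They were taken as cells with HBBA under 10 and a sum of 3 or more over ITGA2B, ITGB3, GP9 and TUBB1, and these 4 genes were not tested. Libraries 1, 2 and 3 gave 75, 106 and 221 thrombocytes. Of 4322 tested genes 1025 were higher in red cells (23.7%) and 855 lower (19.8%), 43.5% in all, with a median log2 fold change of 0.41. Of the 954 genes higher than in the remaining cells, 739 were also higher than in thrombocytes and 8 were lower. Both comparisons use the same red cells.

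HBA1 stood at 125, 123 and 112 in red cells, against 1.23, 0.801 and 1.23 in thrombocytes, a log2 fold change of 6.25 (adjusted p = 2.06e-06). SOX6 had 29.3, 20.9 and 18.6 in red cells against 0, 0.0943 and 0.0712, IFI27L2 23.8, 45.0 and 34.8 against 0.324, 0 and 0.237, and HSPA2 60.2, 40.4 and 62.3 against 0.648, 2.21 and 2.44. The log2 fold changes were 5.38, 5.66 and 4.68. Against the remaining cells, the same genes had log2 fold changes of 4.81, 5.63 and 5.98.

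Other red cell genes were shared in part. H1F0 had 46.9, 49.2 and 51.7 in red cells, against 13.9, 23.5 and 25.6 in thrombocytes, with a log2 fold change of 1.25 ± 0.24 (adjusted p = 0.00375). TAL1 had 19.9, 12.7 and 19.9 in red cells, against 9.60, 7.54 and 9.59 in thrombocytes, a log2 fold change of 0.92. TAL1 was not called without library 1 (adjusted p = 0.103) or library 3 (0.108). Without the marker-bearing red cells neither H1F0 (0.321) nor TAL1 (0.288) was called against thrombocytes. Of 14 tested erythroid regulators 4 rose against thrombocytes, namely TAL1, LMO2, MAFG and KLF3, and ZFPM1 fell by 1.54 on the log2 scale. LMO2 and ZFPM1 were not called without any 1 library (adjusted p = 0.0524 to 0.0788 and 0.0516 to 0.0830). JAK2, MAFK and GFI1B were not called, with log2 fold changes of 0.37, 0.41 and 0.31 and standard errors of 0.31, 0.22 and 0.34. MAFK was called without the 14 larger red cells (adjusted p = 0.0259), and KLF3 was not called without the marker-bearing ones (0.619).

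Genes of iron handling were mostly higher against this reference as well, with 8 of 10 tested genes higher and none lower (5 to 7 higher without 1 library). Without the marker-bearing red cells FTH1, GLRX5 and NCOA4 stayed called higher, and ISCU, PCBP2 and SLC11A2 were not called. IREB2 was then called lower, with a log2 fold change of -1.11 (limma adjusted p = 0.0060), as were 1236 of all 3946 tested genes in that setting. FTH1 had 178, 215 and 157 in red cells, against 27.2, 61.4 and 52.5 in thrombocytes, a log2 fold change of 2.02. Of 70 ribosomal protein genes 26 rose and none fell. B2M rose by 1.47 (adjusted p = 0.0195), a call lost without library 2 (0.0630), library 3 (0.0837) or the marker-bearing red cells (0.288), whereas BF1 had 31.0, 34.1 and 34.2 in red cells against 17.6, 36.3 and 30.8, a log2 fold change of 0.29 ± 0.27 that was not called (adjusted p = 0.393). BG8 rose by 2.48.

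Several genes at high levels in the thrombocyte reference were lower in red cells. KCNMA1, a calcium-activated potassium channel, had 0, 0 and 2.81 in red cells, against 107, 93.9 and 99.9 in thrombocytes. PLCB1 had 0, 0 and 1.30 against 40.9, 32.8 and 36.5, TMSB4X 8.72, 9.98 and 10.2 against 109, 108 and 134, and VCL, the adhesion protein vinculin, 0.168, 0 and 0.216 against 27.6, 17.4 and 16.4. All 6 tested genes of the basophil list fell. Of the 402 thrombocytes, 31 had a sum of 8 or more on that list, with a highest sum of 215. Whether other cell types lie within this reference was not tested, and the fall of the list is not read as a trait of thrombocytes. Of 7 tested T cell genes 4 (BCL11B, CD247, TCF7 and THEMIS) had a call higher than thrombocytes and none fell, but this count rests on the values and cells set apart above. THEMIS was at 0 in all 65 smaller cells, BCL11B was at exactly 1 in 48 of them and TCF7 in 33. Without the 14 larger cells 2 of the list were called higher, against thrombocytes with a total of 2000 or less 1, and without libraries 1, 2 and 3 in turn 1, 3 and 2. Without the marker-bearing red cells none was called higher and 3 were called lower, CD247 (log2 fold change of -2.55, adjusted p = 0.00156) among them, while TCF7 had -0.67 and was not called. That setting leaves cells out by the T cell list itself, which sets these results in part. CD247 had 7.88, 5.36 and 6.06 in red cells against 2.66, 1.79 and 2.99, and in the remaining cells it had 11.8, 9.81 and 10.2. Its rise was not called without library 1 (adjusted p = 0.0611).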

How the data were processed

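Per the labels, 4 libraries of blood mononuclear cells were made with a droplet-based 3′ kit, 1 hen each, and the deposited matrix holds 15271 genes by 16936 cells. Its values are scores, which the authors made from UMI counts before they were deposited. Their methods describe alignment with Cell Ranger to GRCg7b with RefSeq genes, removal of doublets, filters on mitochondrial, gene and globin content in Seurat, and SCTransform within each library. The files do not state which steps the values had passed, and they were read as depth-corrected whole numbers, so no count model was used. The study reports its reads per cell, but the UMI depth of each cell before correction is not known from the matrix. The submitters' processing notes name Cell Ranger 1.2.0, another version than the methods. Library totals of these values were 10500637, 6517674 and 11808169.

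Barcodes without a library prefix were taken as library 1. Library 4, a near copy of library 3, was left out. Cells with HBBA of 10 or more (59645, 41078 and 46233 in summed values) were compared with the remaining cells and with thrombocytes. Sums per library, scaled to 10000, were tested as log2(level + 0.5) with limma 3.58.1 in R 4.3.3, with no covariate and Benjamini-Hochberg adjustment over all genes with a mean level of 0.5 or more in either group. Fold changes of low genes are understated on this scale. Per-cell measures were compared by exact permutation tests on library medians with Python 3.11.15 and scipy 1.17.1. The scripts were tested on simulated data.

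The members and the gene lists were chosen with earlier results of these data known. Named genes are every measured globin, up to 4 members of each list, defining members, and the 15 largest rises and falls called and alike in all 3 libraries. Some genes that this rule takes in are not reported here. Others are said to have been chosen after their values were seen. The same hens gave both groups, so a fit with the hen as a block was run as an alternative, beside other HBBA limits, pseudocounts, filters, scalings, references and each library left out. Deviations of the paired profiles from their group means correlated by -0.060 to 0.044 against the remaining cells and by -0.014 to 0.102 against thrombocytes. Each hen gave 1 library, so p-values rest on the spread between these 3 libraries, which limma pools over both groups and moderates across genes. In the red profiles that spread includes the sampling of only 31, 23 and 25 cells, and was not separated from differences between hens.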

Additional observations from a re-analysis of the deposited data

How the results depend on the processing

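With the hen as a replicate block, 878 genes were higher and 1167 lower than in the remaining cells, and 992 and 833 against thrombocytes, and of the named called genes 133 of 143 and 102 of 102 kept their call. Leaving out each library in turn gave 603 to 685 genes higher and 607 to 763 lower than in the remaining cells (954 and 1189 with all 3), and 571 to 590 higher and 566 to 675 lower than in thrombocytes (1025 and 855). Against the remaining cells 90 to 103 named genes then kept their call. A minimum mean level of 2 gave 542 higher and 505 lower, and 605 and 452 against thrombocytes, where fewer genes are tested. A minimum of 0.05 gave 3408 lower, where more genes are tested.

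Red cells were left out where the T cell, B cell, monocyte, cytolytic and thrombocyte lists, added together, reached 3 or more. This kept 2, 11 and 3 red cells, and gave 214 higher and 1800 lower of 4451 tested genes. Against thrombocytes it gave 201 higher and 1236 lower of 3946. The cause was not tested beyond this loss of cells. In that setting the log2 fold changes of BACH1, EPB41, GPX1, KLF3 and XPO7 became -0.18, -0.83, -0.42, -0.044 and -1.34, and against thrombocytes those of ADD1, CD247, EPB41 and TCF7 became -0.44, -2.55, -0.50 and -0.67. With reference cells of a total of 2000 or less, an alternative chosen after seeing the data, CD247 became 0.13 and PIP5K1B -0.49, and 102 of 133 named calls against the remaining cells were kept. With an HBBA limit of 5, PPIA became 0.61 against thrombocytes. Without the red cells of 800 genes or more, also chosen after seeing the data, 136 of 142 and 96 of 101 named calls were kept. With other HBBA limits, library 4 in place of library 3 or 1 library left out, the share of red cells, the per-cell measures and the summed levels of the T cell, B cell, monocyte, cytolytic and shared leukocyte lists moved by less than their SD between libraries. Without the red cells of 800 genes or more this also held for the per-cell measures and these 5 lists, where the SD of the B cell and monocyte lists exceeds their mean, but not for the heterophil list, at 2.37% against 44.6 ± 37.6% of its level in the remaining cells, or the thrombocyte list, at 5.97% against 17.9 ± 5.88%. These values were not computed without the marker-bearing red cells.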

Other observations

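The genes that differed also differed in length, a property no selection used. The median gene span in RefSeq was 13.6 kb for the 954 genes higher in red cells and 53.4 kb for the 1189 lower, against 24.2 kb for those not called and 25.8 kb over all tested genes. Against thrombocytes the medians were 16.5 kb for higher and 36.9 kb for lower genes. This comparison was chosen after the data were seen and has no test, and 4611 of the 4628 tested genes had a length.

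The gene with the highest level in red cells was no red cell gene. FRMD8 stood at a mean of 380 in red cells, against 720 in the remaining cells, ahead of FTH1 at 183, HBBA at 163 and HBA1 at 120. FRMD8 overlaps DPF2, KAT5, NXF1, TMEM223 and 2 genes known only by LOC numbers, so its value is uncertain. TNRC6B, a partner of microRNA-loaded Argonaute proteins, stood at 30.9, 33.3 and 43.5 in red cells, against 8.79, 8.82 and 7.88, with a log2 fold change of 2.00, and was seen at 2 or more in 52 of the 65 smaller cells. Both were chosen after their values were seen.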
